A study of Mus musculus with 9 samples.

Results

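The nuclear genes that encode subunits of the 5 oxidative phosphorylation complexes were followed in myeloid cells sorted from dystrophic muscle. Genes were chosen by symbol, which took the numbered Nduf subunits, Uqcr, Cox4 to Cox8, *Sdha* to *Sdhd*, and Atp5, and left out symbols marked as pseudogenes or opposite-strand transcripts. They were also selected on measured values, since at least 10 raw counts were required in every library. Of 50559 genes listed, 85 met both conditions. Members were put in complexes by symbol, which places *Ndufa4* and *Ndufa4l2* in complex I. Complex I gave 40 of them, complex II 4, complex III 8, complex IV 16, and complex V 17.

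The mice were *mdx*, a strain that lacks dystrophin and models Duchenne muscular dystrophy, and all were 4.5 weeks old after 7 days of treatment. One group drank vehicle, sweetened water without drug, one drank spironolactone, which blocks the mineralocorticoid receptor, and one drank prednisolone, a glucocorticoid. Each group had 3 libraries, and a replicate is a pool, made of the CD45+CD11b+ fraction of quadriceps muscle from 3 animals. Both sexes were used, and the sexes within a pool are not given. CD45 marks leukocytes and CD11b marks macrophages, monocytes, and neutrophils. Libraries held 31469815 to 32943512 counts assigned to genes. In CPM (counts scaled to library size with TMM), a list of 12 myeloid markers, *Ptprc* and *Itgam* among them, summed to between 19125 and 23153 in all 9 libraries with no marker at 0.

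The respiratory chain passes electrons from NADH (complex I) and succinate (complex II) through ubiquinone to complex III, cytochrome c, and complex IV, which reduces oxygen. Complexes I, III, and IV pump protons across the inner mitochondrial membrane, and complex V, the ATP synthase, uses the gradient to make ATP. Most subunits come from nuclear genes, and a few at the centre of complexes I, III, IV, and V come from mitochondrial DNA. Macrophages are known to change the balance of glycolysis and oxidative phosphorylation with their state of activation.

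The count minimum shaped only the bottom of the list. Just inside it were *Cox7a1*, with a lowest count of 13, *Cox8b* with 14, *Ndufb4c* with 16, and *Cox6c2* and *Ndufb4b* with 20 each. Left outside were *Cox4i2* with 0 to 32 counts, *Ndufs6b* with 1 to 10, *Ndufa11b* with 0 to 4, *Cox7b2* with 0 to 1, and *Cox8c* with 0. Among the members, 3 copies, *Cox6c2*, *Ndufb4b*, and *Ndufb4c*, are annotated in GENCODE as pseudogenes or noncoding RNA, and their reads may come from the parent genes. Reads also fell on pseudogenes that were left out, with 370 to 521 counts on *Cox5b-ps* and 340 to 725 on *Ndufa12-ps*, so that counts of *Cox5b* and *Ndufa12* could be split between copies.

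The upstream sequences below are shown because the factors GABPA, NRF1, YY1, and ERR are known regulators of nuclear respiratory genes. Of the 9 members that differed between the drugs, 8 had a window, and a motif was marked in the 120 bases of 3 of them (*Ndufb7*, *Atp5e*, and *Ndufa11*). These 3 are printed with *Ndufs7* as an example of the other 5 (*Ndufb11*, *Ndufs7*, *Atp5j2*, *Ndufv3*, and *Uqcr10*), in which none was marked. Each holds 120 bases before the start of transcription, 5′ to 3′ on the strand of the gene, from RefSeq on GRCm38.p6. Capitals mark a match, on either strand, to the core CCGGAAG of ETS factors such as GABPA or to the core of NRF1, which is GCGC, any 2 bases, and GCGC. The stretches lie at chr8:83566638-83566757 (plus strand), chr2:174464102-174464221 (minus strand), chr17:56717642-56717761 (plus strand), and chr10:80249329-80249448 (plus strand).
Ndufb7: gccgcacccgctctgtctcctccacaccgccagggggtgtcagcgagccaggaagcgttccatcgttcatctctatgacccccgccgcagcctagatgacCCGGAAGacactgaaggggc
Atp5e: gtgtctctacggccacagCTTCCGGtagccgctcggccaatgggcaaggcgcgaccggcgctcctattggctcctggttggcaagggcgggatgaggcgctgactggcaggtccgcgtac
Ndufa11: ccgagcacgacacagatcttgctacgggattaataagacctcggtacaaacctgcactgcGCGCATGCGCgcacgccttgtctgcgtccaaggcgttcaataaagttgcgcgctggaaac
Ndufs7: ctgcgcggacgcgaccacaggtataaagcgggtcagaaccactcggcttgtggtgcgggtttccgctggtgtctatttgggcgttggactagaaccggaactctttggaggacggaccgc

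Windows of 300 bases, with 250 before and 50 after the start, were found for 69 of 85 members (74 windows). CCGGAAG was in 17 of these 74 windows (23.0%) and in 8.86% of all 32851 mouse windows. The NRF1 core was in 19 (25.7%) against 6.23%. The core of YY1, AANATGGCG, was in 10 (13.5%) against 2.38%, and the ERR element TCAAGGTCA was in 2 (2.70%) against 0.423%. Both strands were searched, and motif matches of different kinds could overlap. The printed stretch of *Ndufs7* holds none of the 4 motifs, which says only that these letters are absent there. A match is a description of sequence and not a site of binding.

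Levels between genes were compared per length, as TPM (counts divided by the length of the canonical transcript and scaled to a common total), for the 82 members with a length. In vehicle, the median member stood at 118 TPM, 49 members were above 100 TPM, and 7 were under 10 TPM. The highest was *Cox8a*, a small membrane subunit of complex IV, at 872 ± 64.7 TPM (SD, n = 3), followed by *Cox6a1* at 867 ± 10.7, *Atp5b* at 675 ± 23.0, and *Cox6b1* at 668 ± 55.8. *Cox8a* and *Cox6a1* differed by less than their spread, as did *Atp5b* and *Cox6b1*. *Atp5b* is the catalytic beta subunit of the ATP synthase. Within the other complexes, *Ndufb8* led complex I at 389 ± 56.1 TPM, *Uqcrb* led complex III at 359 ± 63.0, and *Sdha*, the flavoprotein that oxidizes succinate, led complex II at 110 ± 13.9. The next in complex I, *Ndufa3* at 333 ± 24.7, and in complex II, *Sdhd* at 103 ± 5.79, were within the spread of the leader. Order by TPM depends on the transcript taken as canonical, which for *Ndufb2* and *Ndufb9* is over 4000 bases long.

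**Figure D1:**
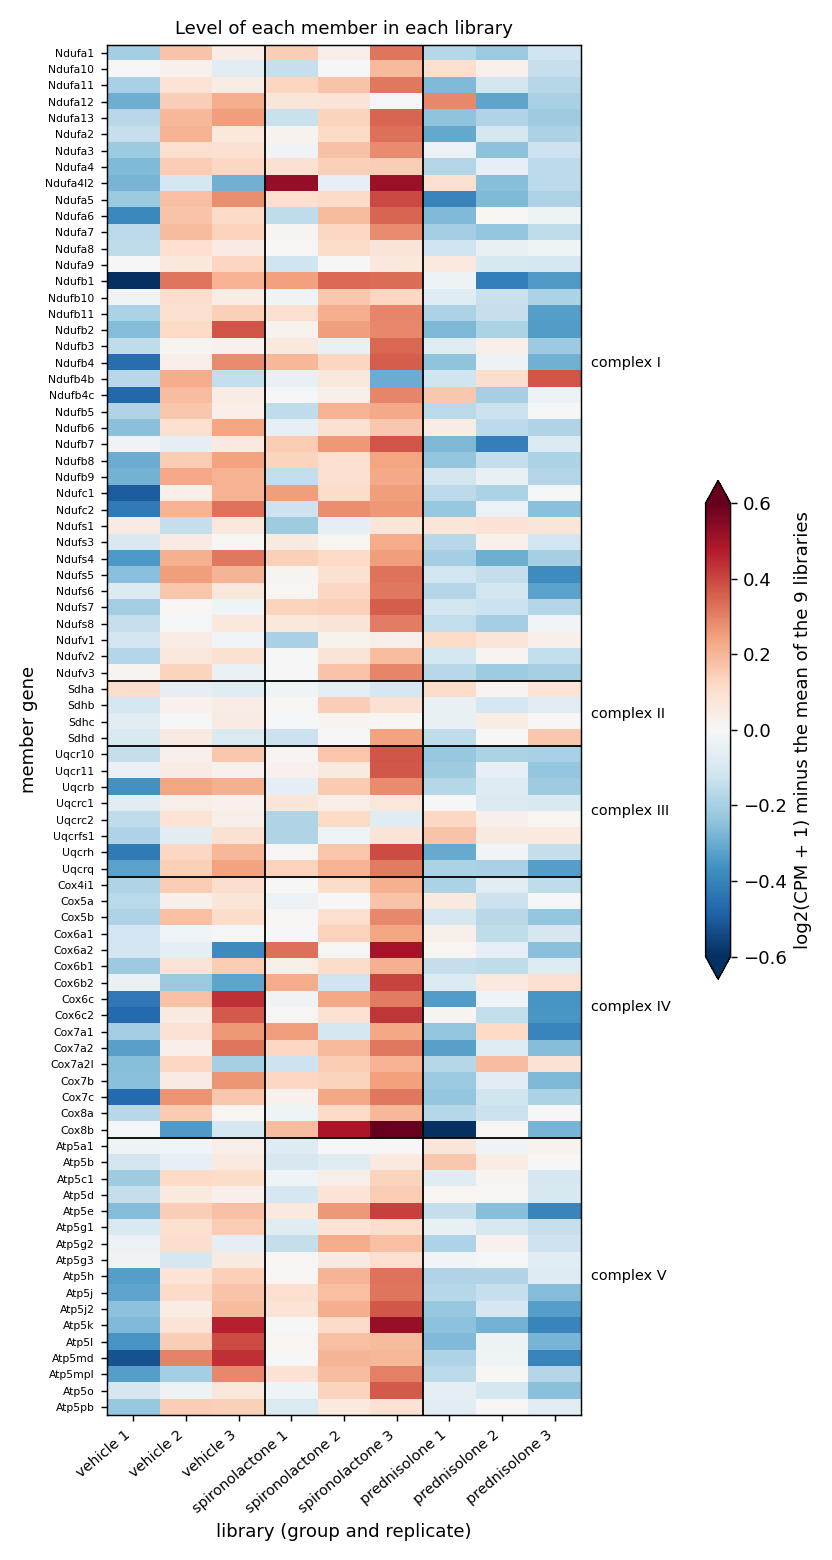
Each row is a member (84 of 85 are drawn) and each column a library, grouped by complex and by treatment. Color gives log2(CPM + 1) minus the mean of that gene over the 9 libraries, on a scale that ends at 0.6 in either direction. Vehicle replicate 1 and the 3 prednisolone libraries are mostly blue, spironolactone replicate 3 is mostly red, and the 4 rows of complex II are pale.

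The libraries of one group differed in these genes before any drug was compared. The CPM of all 85 members summed to 5657, 6689, and 6834 in vehicle replicates 1 to 3. The sums were 6289, 6797, and 7280 with spironolactone and 6046, 6086, and 5904 with prednisolone. Vehicle replicate 1 was thus below every other library, and the other 2 vehicle libraries were within the range of spironolactone and above every prednisolone library. Among vehicle libraries, replicate 1 had the lowest value of 74 of 85 members, and among spironolactone libraries replicate 3 had the highest value of 68. Of all 9 libraries, vehicle replicate 1 was lowest for 35 members, while it was lowest for 14.9% of all genes tested. Spironolactone replicate 3 was highest for 51 members, and for 14.7% of all genes.

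Spironolactone was set against prednisolone to ask whether the mineralocorticoid receptor antagonist and the glucocorticoid differ in what they do to these cells. At an adjusted p under 0.05, 9 subunit genes were higher with spironolactone, 5 of complex I, 2 of complex III, and 2 of complex V, and none was lower. Their log2 fold changes lay between 0.36 and 0.52. The test was the quasi-likelihood F test of edgeR, and p-values were adjusted across the 16618 genes tested (Benjamini-Hochberg). All 85 members passed the filter on low counts. The 9 calls are 9 of 85 members, where 5.17% of all genes tested were called and 2.38% were called higher. At an unadjusted p under 0.05, 42 members were higher, beside 11.4% of all genes, and none was lower.

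*Ndufb7*, an accessory subunit of complex I on the side of the intermembrane space, had the smallest p. Its level was 69.1, 67.1, and 72.9 CPM in vehicle, 77.8, 84.1, and 91.1 CPM with spironolactone, and 57.9, 52.5, and 66.0 CPM with prednisolone. Every spironolactone library was above and every prednisolone library below every vehicle library, which held for no other member. The log2 fold change of spironolactone against prednisolone was 0.52 ± 0.10 (SE, adjusted p = 0.0104).

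*Ndufs7* is the one core subunit of complex I among the 9 and binds the last iron-sulfur cluster before ubiquinone. It stood at 48.8, 56.9, and 55.6 CPM in vehicle, 62.1, 62.5, and 73.0 CPM with spironolactone, and 52.4, 51.7, and 49.9 CPM with prednisolone. Spironolactone libraries were above all others, and prednisolone libraries were within the vehicle range. The log2 fold change between the drugs was 0.36 ± 0.09 (adjusted p = 0.0419).

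The other members of complex I that passed were *Ndufb11*, *Ndufa11*, and *Ndufv3*, all accessory subunits. *Ndufb11* was at 56.5, 69.2, and 71.3 CPM in vehicle, 69.01, 75.3, and 79.4 CPM with spironolactone, and 56.4, 58.6, and 51.1 CPM with prednisolone (0.43 ± 0.10, adjusted p = 0.0309). *Ndufa11* was at 40.5, 49.3, and 48.0 CPM in vehicle, 51.0, 52.4, and 58.2 CPM with spironolactone, and 38.5, 43.0, and 41.2 CPM with prednisolone (0.40 ± 0.10, adjusted p = 0.0339). In both genes the drug groups did not overlap and vehicle reached from the prednisolone range upward. *Ndufv3* was at 53.1, 57.6, and 50.9 CPM in vehicle, 52.2, 59.2, and 64.5 CPM with spironolactone, and 46.6, 45.1, and 45.6 CPM with prednisolone (0.36 ± 0.09, adjusted p = 0.0429). Here the prednisolone libraries were below all others and the vehicle and spironolactone libraries overlapped.

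In complex III, the small subunits *Uqcr10* and *Uqcrq* passed. *Uqcr10* was at 45.8, 51.8, and 56.9 CPM in vehicle, 51.4, 57.2, and 66.3 CPM with spironolactone, and 43.3, 44.4, and 44.3 CPM with prednisolone (0.41 ± 0.11, adjusted p = 0.0436). *Uqcrq* was at 65.8, 91.2, and 97.5 CPM in vehicle, 90.7, 95.4, and 102.5 CPM with spironolactone, and 72.2, 71.9, and 65.3 CPM with prednisolone (0.46 ± 0.12, adjusted p = 0.0486). Vehicle replicate 1 was the only vehicle library of *Uqcrq* near the prednisolone level. The large core proteins and the Rieske iron-sulfur protein did not pass, with 0.12 ± 0.08 for *Uqcrc1*, -0.10 ± 0.10 for *Uqcrc2*, and -0.14 ± 0.10 for *Uqcrfs1*. Their canonical transcripts are 1653, 2322, and 2206 bases long, and those of *Uqcr10* and *Uqcrq* 448 and 1537. The part of length in this was not tested.

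In complex V, *Atp5e* and *Atp5j2* passed. *Atp5e*, the epsilon subunit of the central stalk, was at 48.9, 65.1, and 66.5 CPM in vehicle, 61.0, 70.4, and 78.2 CPM with spironolactone, and 53.0, 49.0, and 44.4 CPM with prednisolone (0.52 ± 0.13, adjusted p = 0.0335). *Atp5j2*, a subunit of the membrane part, was at 76.6, 94.1, and 104.1 CPM in vehicle, 96.5, 106.0, and 118.4 CPM with spironolactone, and 77.8, 84.9, and 72.2 CPM with prednisolone (0.45 ± 0.12, adjusted p = 0.0420). Both had drug groups that did not overlap. The subunits that form the catalytic head were near 0, with -0.05 ± 0.08 for *Atp5a1*, which took 413 to 458 CPM in the 9 libraries, and -0.11 ± 0.09 for *Atp5b*.

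**Figure D2:**
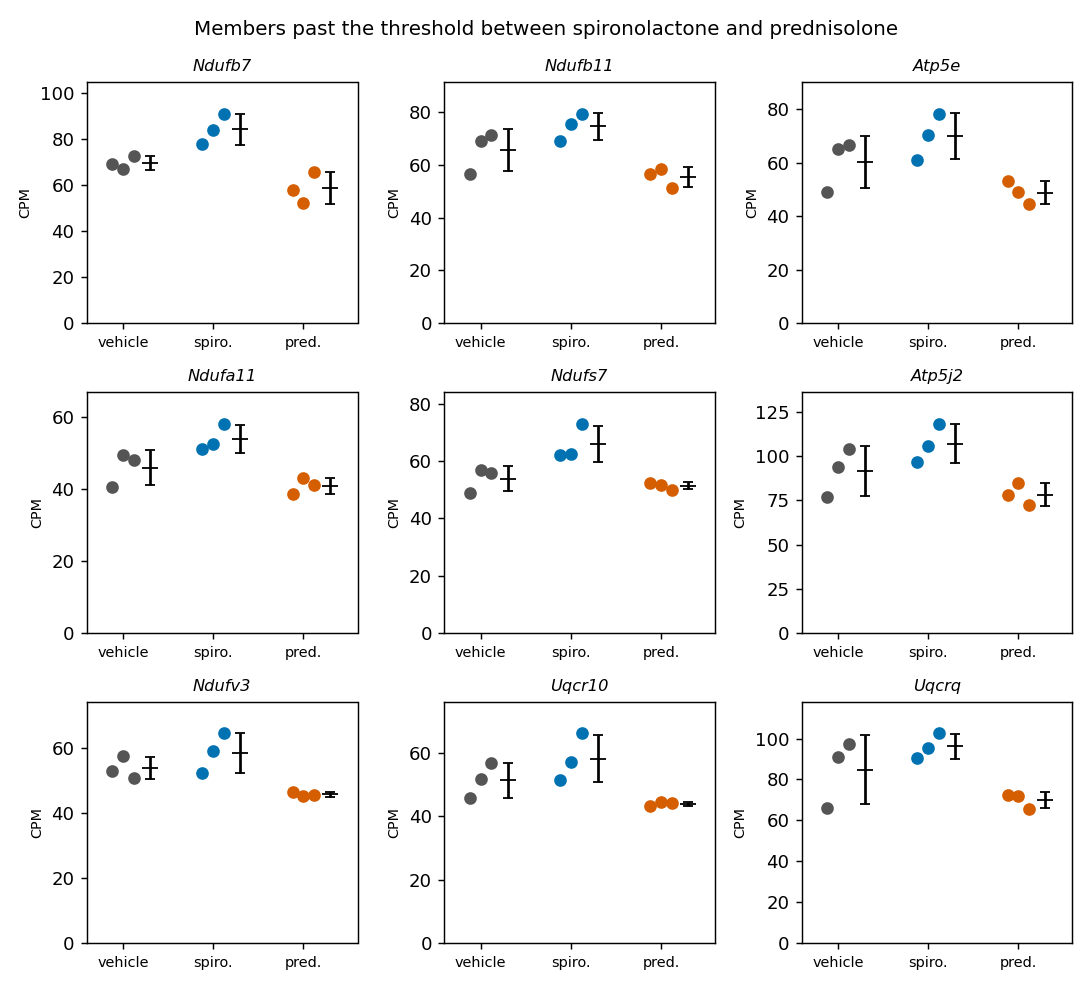
Panels show CPM (TMM-scaled, axis from 0) of the 9 members that passed between spironolactone (spiro.) and prednisolone (pred.), with a point for each of 3 libraries per group and the mean ± SD beside them. In all panels the 3 spironolactone points are above the 3 prednisolone points, and vehicle replicate 1 is the lowest vehicle point in 7 of the 9.

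Over all members the median log2 fold change of spironolactone against prednisolone was 0.29, with 0.03 over all genes tested, and 76 of 85 members were above 0, where 53.4% of all genes were. For 48 members every spironolactone library was above every prednisolone library, beside 15.1% of all genes, and for 2, *Ndufs1* and *Sdha*, every one was below, beside 15.2%. For *Ndufs1* the gap was only that between 42.68 and 42.70 CPM. By complex, the medians were 0.31 in complex I, 0.31 in complex III, 0.33 in complex IV, and 0.31 in complex V, against 0.02 in complex II. Of the 4 complex II genes, 3 have long canonical transcripts (3073 bases for *Sdha*, 4030 for *Sdhb*, and 3209 for *Sdhc*), while *Sdhd* has 1258. The difference between complexes was not tested. Complex IV had all 16 members above 0 and 9 with an unadjusted p under 0.05, and none of them passed the adjusted threshold. The smallest adjusted p there in edgeR was 0.0705, that of *Cox8b*, which passed with DESeq2 (0.0171), with no filter beyond 1 count (0.00276), and without vehicle replicate 1 (0.0451). Over all complexes DESeq2 called 18 members beside 1739 of all genes, and limma-voom called 7 beside 840, where edgeR called 859.

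Complex II has no mitochondrially encoded subunit and does not pump protons. Its group sums overlapped, as did those of complex V (2247.6 to 2575.2 CPM with spironolactone and 2185.6 to 2317.5 CPM with prednisolone). In complexes I, III, and IV the sums in vehicle overlapped those of both drugs, and the drugs did not overlap each other. The 4 genes of complex II together gave between 375 and 392 CPM in all 9 libraries. *Sdha* was at 145.1, 129, and 128 CPM in vehicle, 132, 129, and 126 CPM with spironolactone, and 145.4, 137, and 143 CPM with prednisolone. Every spironolactone library of *Sdha* was below every prednisolone library, and the log2 fold change of -0.13 ± 0.08 did not pass (adjusted p = 0.367). *Sdhb*, the iron-sulfur protein, had a log2 fold change of 0.16 ± 0.08, and the membrane anchors *Sdhc* and *Sdhd* had 0.01 ± 0.08 and 0.03 ± 0.11.

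*Ndufs1*, the largest subunit of complex I and a carrier of iron-sulfur clusters, was at 42.0, 36.6, and 42.6 CPM in vehicle, 34.8, 39.0, and 42.68 CPM with spironolactone, and 42.70, 43.1, and 42.8 CPM with prednisolone. The 5 subunits of the F1 part of complex V (*Atp5a1*, *Atp5b*, *Atp5c1*, *Atp5d*, and *Atp5e*) had a median of 0.07, against 0.31 for the other 12. Canonical transcripts of the 5 F1 genes are 2471, 1926, 1780, 1694, and 429 bases long, in that order. Those of the other 12 with a known length run from 371 to 3619 bases. No test was made of this difference between parts of complex V, nor of the part of transcript length in it.

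**Figure D3:**
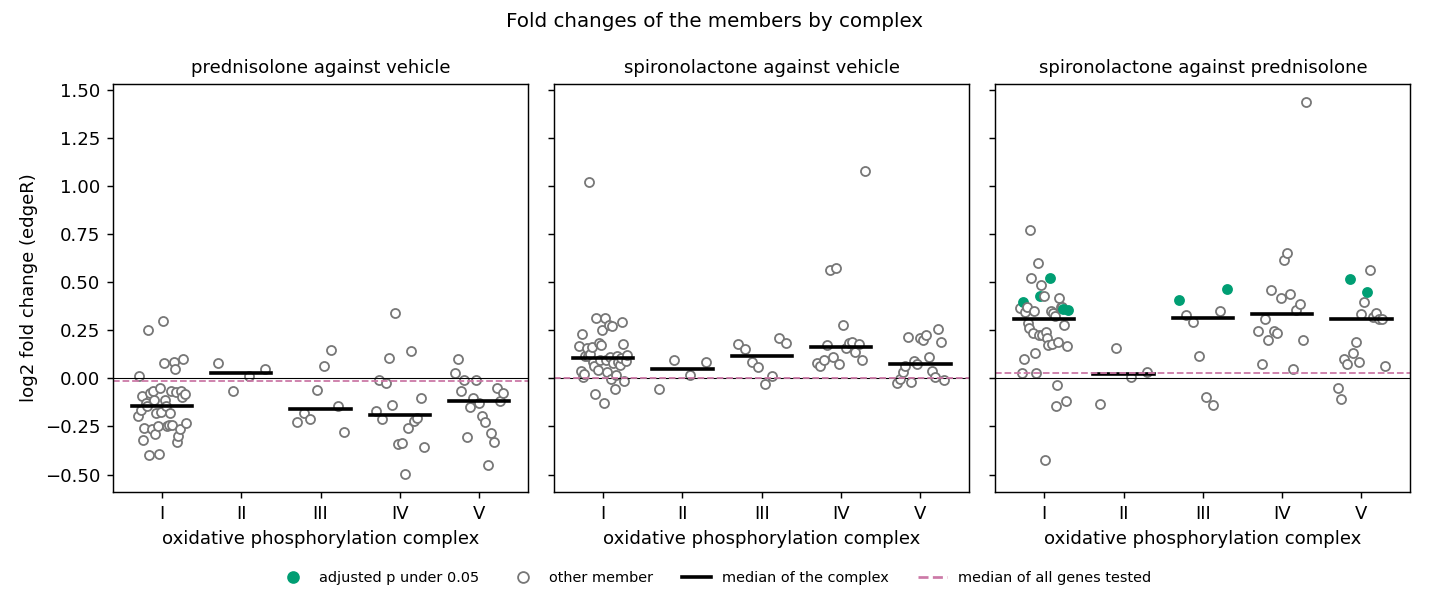
Log2 fold changes from edgeR are plotted for every member, by complex, in the 3 comparisons. Filled points passed an adjusted p of 0.05, bars give the median of a complex, and the dashed line is the median of all genes tested. The 9 filled points are all in the comparison of the drugs, and complex II lies near 0 in each panel.

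Prednisolone against vehicle asks what the glucocorticoid does on its own. No member passed in edgeR, where 1.76% of all genes did, and none passed in DESeq2 or limma-voom, which called 738 and 280 of all genes. The smallest adjusted p in edgeR was 0.224. At an unadjusted p under 0.05 there were 13 members, all lower, beside 7.07% of all genes, and 10 of the 13 belong to complex I. The median was -0.14, with -0.01 over all genes tested, and 17 of 85 members were above 0, where 47.8% of all genes were. Every prednisolone library was below every vehicle library for 7 members, beside 9.27%, and above for *Ndufs1* alone, beside 10.4%.

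The 3 members with the smallest p were all accessory subunits of complex I. *Ndufa5* was at 13.4, 18.0, and 19.4 CPM in vehicle and 11.7, 12.99, and 13.8 CPM with prednisolone (-0.40 ± 0.15, adjusted p = 0.224). *Ndufb2* was at 12.9, 17.1, and 20.6 CPM against 12.8, 13.6, and 12.2 CPM (-0.39 ± 0.16, adjusted p = 0.258). *Ndufa13*, also known as GRIM-19, was at 73.9, 95.3, and 99.0 CPM against 70.0, 73.1, and 71.3 CPM (-0.32 ± 0.13, adjusted p = 0.259). In *Ndufa5* and *Ndufb2* only vehicle replicate 1 was within the prednisolone range, and in *Ndufa13* it was just above it. Without vehicle replicate 1, edgeR called 21 members, all lower with prednisolone, and the median was -0.24. Calls over all genes rose from 293 to 826 in the same fit. Leaving out vehicle replicate 2 or 3 made the difference smaller. The median was -0.091 without vehicle replicate 2 and -0.073 without vehicle replicate 3, and the 13 members at an unadjusted p under 0.05 became 2 and 1. They became 3, 6, and 3 without prednisolone replicates 1, 2, and 3, where the median was -0.126, -0.131, and -0.144. No member was called in these 5 fits. Calls over all genes fell to 127 and 179 without vehicle replicates 2 and 3. They fell to 153, 69, and 119 without prednisolone replicates 1, 2, and 3.

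Spironolactone against vehicle asks the same of the mineralocorticoid receptor antagonist. No member passed in edgeR, where 0.0181% of all genes did, nor in DESeq2, which called 293 of all genes, or limma-voom, which called 0. The smallest adjusted p in edgeR was 0.296. At an unadjusted p under 0.05 there were 6 members, all higher, beside 5.21% of all genes. The median was 0.11, with 9.0e-05 over all genes tested, and 74 of 85 members were above 0, where 50.0% of all genes were. Every spironolactone library was above every vehicle library for 8 members, beside 6.99%, and below for none, beside 6.50%. Without vehicle replicate 1 the median was 0.0057, with 0.0093 over all genes in that fit, and 47 members were above 0. Without spironolactone replicate 3 the median was 0.04 and 64 were above 0. It was 0.16 without vehicle replicate 2 and 0.17 without vehicle replicate 3 or spironolactone replicate 1. Members at an unadjusted p under 0.05 ran from 1 to 15 when 1 library was left out. Both drug comparisons share the vehicle libraries.

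The smallest p belonged to *Ndufs7* (0.29 ± 0.09, adjusted p = 0.296), *Ndufa4l2*, and *Ndufb7* (0.28 ± 0.10, adjusted p = 0.381). *Ndufa4l2*, a paralog of *Ndufa4* that is known to be induced in hypoxia, was at 0.82, 1.06, and 0.81 CPM in vehicle, 2.18, 1.14, and 2.15 CPM with spironolactone, and 1.37, 0.86, and 0.98 CPM with prednisolone (1.02 ± 0.36 against vehicle, adjusted p = 0.379). Spironolactone replicates 1 and 3 of *Ndufa4l2* were near 2 CPM, and replicate 2 stood just above vehicle. *Ndufa4* itself, which is counted here with complex I by its symbol although its protein is known in complex IV, was at 50.7, 68.0, and 66.7 CPM in vehicle, 65.3, 67.8, and 67.9 CPM with spironolactone, and 54.1, 59.0, and 54.5 CPM with prednisolone.

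Complex IV has subunits with a ubiquitous form and a form of heart and skeletal muscle, and the muscle forms were low in these cells. *Cox6a2* was 1.40% to 1.90% of the TPM of *Cox6a1* and *Cox6a2* together in vehicle, *Cox7a1* was 3.19% to 4.09% of *Cox7a1* and *Cox7a2*, and *Cox8b* was 0.135% to 0.252% of *Cox8a* and *Cox8b*. With spironolactone the shares were 1.76% to 2.53%, 2.67% to 4.63%, and 0.280% to 0.493%, so that only the range of *Cox8b* was clear of vehicle. The size of a share depends on the transcripts taken as canonical, of 2149 bases for *Cox8b* and 564 for *Cox8a*.

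*Cox8b* was at 1.67, 1.12, and 1.496 CPM in vehicle, 2.06, 2.78, and 4.24 CPM with spironolactone, and 0.43, 1.71, and 1.22 CPM with prednisolone. Spironolactone libraries were above all others, by 1.08 ± 0.42 against vehicle (adjusted p = 0.446) and 1.43 ± 0.43 against prednisolone (adjusted p = 0.0705). *Cox6a2* was at 4.35, 4.56, and 3.43 CPM in vehicle, 6.27, 4.81, and 7.16 CPM with spironolactone, and 4.83, 4.59, and 3.86 CPM with prednisolone (0.56 ± 0.21 against vehicle, adjusted p = 0.409). *Cox7a1* was at 0.58, 0.94, and 1.18 CPM in vehicle, 1.17, 0.70, and 1.14 CPM with spironolactone, and 0.55, 0.98, and 0.39 CPM with prednisolone, and its groups overlapped. *Cox6a2* shares its locus with *Itgad*, a leukocyte integrin gene on the other strand, and *Cox8b* shares its own with *Psmd13*. These overlaps are of whole gene spans, and overlap of exons was not read. Where exons overlap and counting ignored strand, reads of the 2 genes of a pair cannot be told apart. Reads counted as ambiguous, 2.16% to 2.35% in the 9 libraries, were left out.

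Skeletal muscle transcripts also differed between the groups. A list of 20 muscle markers, among them *Acta1* and *Ckm*, summed to between 392 and 591 CPM in vehicle, 703 and 1165 CPM with spironolactone, and 584 and 839 CPM with prednisolone, and no marker was at 0 in all libraries. Between spironolactone and prednisolone, 1 of its 19 tested genes was called higher by edgeR, beside 2.38% of all genes, and the median was 0.30. Against vehicle its median was 0.85 with spironolactone, with none called, and 0.29 with prednisolone, with 1 called higher, *Myh1* (1.07 ± 0.22, adjusted p = 0.0239), while the median of the members was -0.14 in the latter. For prednisolone against vehicle 1.76% of all genes were called in either direction. The part of muscle RNA in the levels of the members was not tested. In sorted cells sequenced in bulk, fewer cells of a type and less RNA per cell cannot be told apart.

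**Figure D4:**
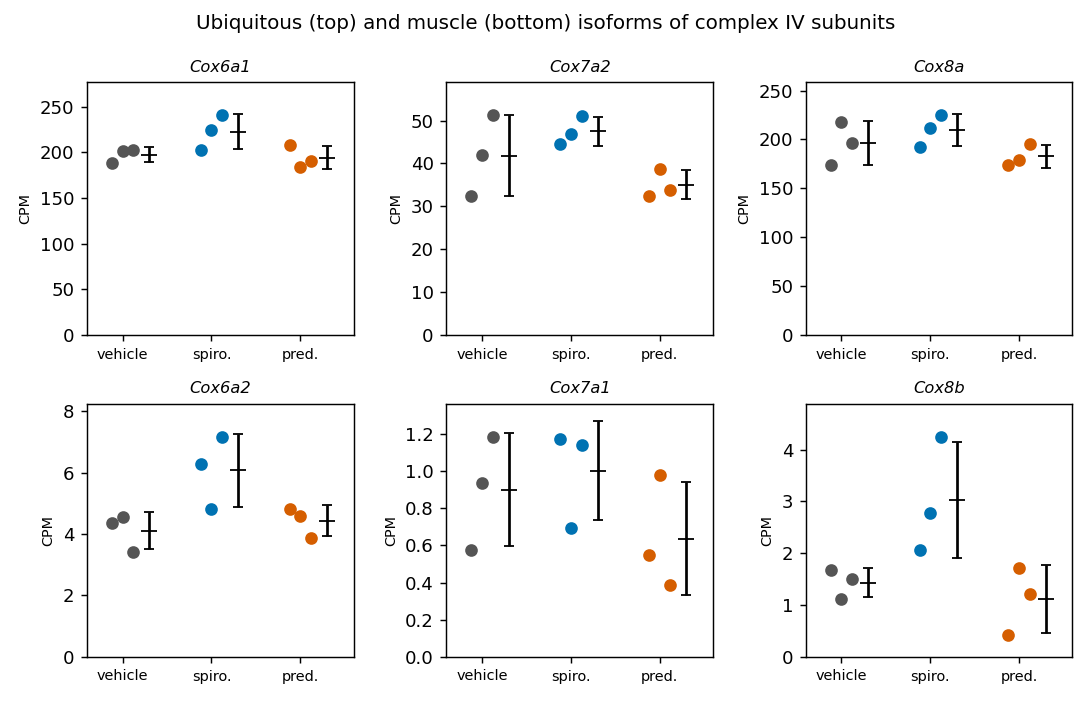
CPM (axes from 0, on different scales) of 3 ubiquitous subunit forms of complex IV in the top row and their muscle forms below, with a point per library and the mean ± SD of 3 libraries. *Cox6a1* and *Cox8a* lie near 200 CPM, and the muscle forms between 0.39 and 7.16 CPM. Spironolactone points of *Cox8b* are above all others.

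Other paralogs were not called by edgeR in any comparison, and other tools were not read for them one by one. *Cox4i1*, the common form of the largest nuclear subunit of complex IV, was at 169, 214, and 207 CPM in vehicle, 192, 207, and 223 CPM with spironolactone, and 168, 183, and 173 CPM with prednisolone. *Cox6b2*, known as a testis form of *Cox6b1*, was between 1.28 and 2.75 CPM. *Cox7a2* differed by 0.44 ± 0.14 between the drugs (adjusted p = 0.0845), while *Cox7a2l*, which takes part in supercomplexes, differed by 0.05 ± 0.13. *Atp5g1*, *Atp5g2*, and *Atp5g3* encode the same mature ring subunit c of the ATP synthase, and they differed by 0.13 ± 0.09, 0.19 ± 0.11, and 0.08 ± 0.08.

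Many of the members are short transcripts, and short transcripts of other kinds moved in the same libraries. Of the members with a canonical length, 40 protein-coding ones were under 1000 bases, and all 40 were above 0 for spironolactone against prednisolone, with a median of 0.34. For 496 other protein-coding genes of that length, which are neither members nor cytosolic ribosomal proteins, the median was 0.26 and 402 were above 0. From 1000 to under 2000 bases the medians were 0.19 for 21 members and 0.12 for 2177 other genes, and from 2000 to under 4000 bases they were 0.01 for 13 members and 0.02 for 5009 other genes. Above that, 5 members, *Sdhb* among them, had a median of 0.18, with 5 of 5 above 0, and 5280 other genes one of -0.08. The class of 2000 to under 4000 bases holds *Sdha* and *Sdhc*, and all 18 members of 2000 bases or more had a median of 0.11. All 9 members that passed are under 2000 bases long. Whether the members differ from other genes of their length was not tested.

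The cytosolic ribosomal protein genes, 92 of which were tested, had a median of 0.31 between the drugs. With spironolactone 6 were called higher, beside 2.38% of all genes tested. Against vehicle their medians were -0.18 with prednisolone and 0.12 with spironolactone. Library by library, the median member was 0.19 below its own mean over 9 libraries in vehicle replicate 1 (-0.19 on the log2 scale), and other genes under 1000 bases were at -0.16 there. In spironolactone replicate 3 the values were 0.25 and 0.20, and in the prednisolone libraries they ran from -0.16 to -0.09 and from -0.14 to -0.07. Genes of 4000 bases or more had the other sign in these libraries, with 0.05 in vehicle replicate 1 and -0.09 in spironolactone replicate 3. What in the tissue or in library preparation moves with transcript length was not tested.

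**Figure D5:**
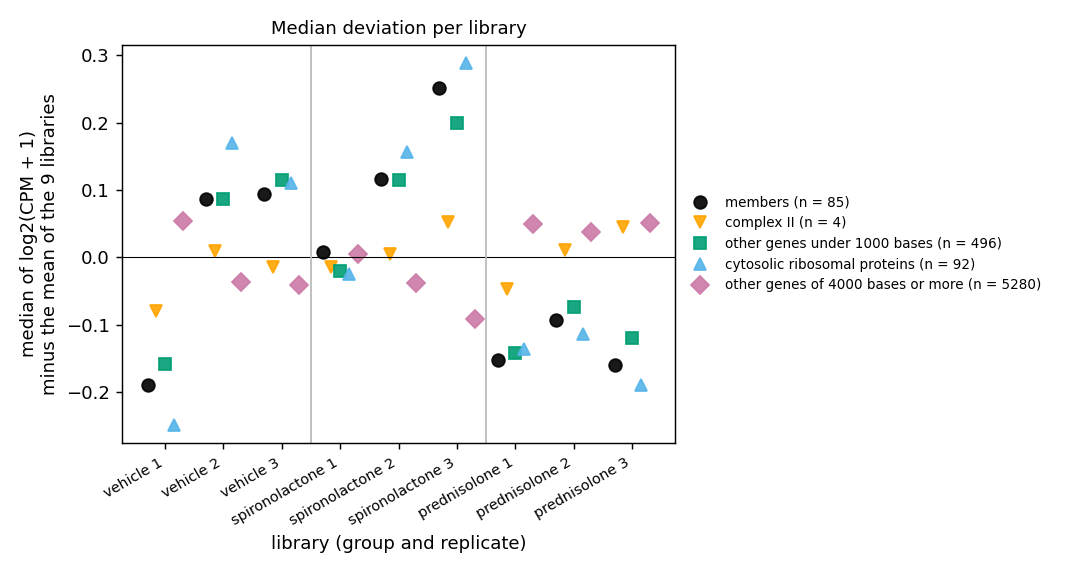
For each library, points give the median over a group of genes of log2(CPM + 1) minus the mean of each gene over the 9 libraries. The members follow other genes under 1000 bases and the cytosolic ribosomal proteins, complex II stays between -0.08 and 0.05, and genes of 4000 bases or more lie on the other side of 0 in vehicle replicate 1 and spironolactone replicate 3.

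The rest of the pathway was read from lists outside the symbol rule. None of 52 assembly factors of complexes I to V was called in any comparison by edgeR. Between the drugs 9 were higher at an unadjusted p under 0.05, beside 11.4% of all genes, and 2 were lower. Their median was 0.10. Of 19 electron carriers and related genes, 1 was called higher with spironolactone than with prednisolone, beside 2.38% of all genes tested. It was *Etfb*, a subunit of the flavoprotein that feeds electrons from fatty acid oxidation (0.55 ± 0.10, adjusted p = 0.0105). *Etfb* stood at 65.0, 54.4, and 69.3 CPM with spironolactone and 44.8, 44.5, and 39.9 CPM with prednisolone. *Cyc1*, the cytochrome c1 subunit of complex III, and *Cycs*, the cytochrome c that carries electrons from complex III to complex IV, differed by 0.10 ± 0.10 and -0.10 ± 0.15.

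Of 78 mitochondrial ribosomal proteins, 2 were called higher with spironolactone than with prednisolone, beside 2.38% of all genes tested. They were *Mrpl54* (0.49 ± 0.12, adjusted p = 0.0304) and *Mrps21* (0.47 ± 0.12, adjusted p = 0.0437). Of 19 enzymes of the tricarboxylic acid cycle and pyruvate entry, 1 was called, beside 5.17% of all genes tested. It was *Cs*, the citrate synthase, which was lower with spironolactone (-0.32 ± 0.08, adjusted p = 0.0398). *Cs* was at 196.9, 203, and 197.3 CPM in vehicle, 184, 201, and 184 CPM with spironolactone, and 250.1, 232, and 229 CPM with prednisolone. The cycle as a list had a median of -0.12 between the drugs, with the sign opposite to that of the subunits. None of 17 regulators of mitochondrial biogenesis was called by edgeR. Between the drugs 1 was higher at an unadjusted p under 0.05, beside 11.4% of all genes, and 2 were lower. *Pprc1*, a coactivator, was at -0.23 ± 0.10 (adjusted p = 0.171), *Esrra* at 0.24 ± 0.11 (adjusted p = 0.202), and *Gabpa* at -0.19 ± 0.09 (adjusted p = 0.216).

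The 13 subunits encoded in mitochondrial DNA were higher in value with spironolactone than in either other group, and none was called by edgeR. Their median was 0.77 against vehicle and 0.59 against prednisolone, and 13 of 13 were above 0 in both. In each, 8 were higher at an unadjusted p under 0.05, beside 5.21% and 11.4% of all genes. They summed to 35661 to 55112 CPM in vehicle, 67037 to 78467 CPM with spironolactone, and 39767 to 69920 CPM with prednisolone.

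Summed markers of other cell types also differed between the libraries. Neutrophil markers summed to 743 to 4839 CPM in vehicle, 1370 to 3622 CPM with spironolactone, and 764 to 974 CPM with prednisolone. Endothelial markers summed to 101 to 145 CPM in vehicle, 195 to 270 CPM with spironolactone, and 129.5 to 159 CPM with prednisolone, and erythroid markers to 70.3 to 135, 187 to 306, and 37.1 to 79.7 CPM. Cycling genes were at 539 to 769 CPM in vehicle, 627 to 737 CPM with spironolactone, and 935 to 970 CPM with prednisolone. Markers of F4/80hi macrophages summed to 2051 to 2431, 2055 to 2320, and 2428 to 2655 CPM in vehicle, spironolactone, and prednisolone, those of monocytes to 1993 to 3581, 2217 to 2634, and 2835 to 3817 CPM (only 3 of 10 monocyte markers were above 0 for prednisolone against vehicle, with a median of -0.25, and *Chil3* had the largest share of the prednisolone sum), and those of dendritic cells to 352 to 387, 390.2 to 482, and 325 to 350 CPM. Of 10 dendritic cell markers, 5 were above 0 for prednisolone against vehicle, with a median of 0.0017. At an unadjusted p under 0.05, 3 of them were higher and 2 lower. Markers of fibro-adipogenic cells summed to 648 to 917, 854 to 1241, and 812 to 908 CPM. Those of lymphocytes summed to 12.9 to 17.4, 22.9 to 28.6, and 9.02 to 14.6 CPM, with Trbc2 at 0 throughout. For spironolactone against prednisolone, edgeR called 5 of 10 endothelial, 4 of 6 erythroid, and 5 of 11 lymphocyte markers higher. It called 6 of 14 cycling genes lower, beside 5.17% of all genes in either direction. Of 10 markers each, 2 dendritic cell, 1 monocyte, and 1 fibro-adipogenic were higher, and 1 F4/80hi higher and 3 lower. None of 12 neutrophil markers was called. The share of reads that did not align uniquely was 6.81% to 8.60%, 9.42% to 10.4%, and 7.17% to 9.43% in the 3 groups. Reads on no annotated gene made up 9.33%, 6.77%, and 6.80% in vehicle replicates 1 to 3. They made up 8.37%, 6.69%, and 5.76% with spironolactone and 6.58%, 6.90%, and 6.29% with prednisolone. The part of these in the levels of the members was not tested.

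The 9 calls between the drugs were sensitive to single libraries, while the direction of the members was not. Without spironolactone replicate 3, prednisolone replicate 1, or prednisolone replicate 2, edgeR called 0 of 85 members, with 21, 33, and 37 at an unadjusted p under 0.05. DESeq2 and limma-voom were not run without single libraries. Calls over all genes fell from 859 to 270, 304, and 232 in these fits. Without spironolactone replicate 2 or prednisolone replicate 3 it called 1 member, beside 412 and 380 of all genes. Without vehicle replicate 2 it called 4 members beside 800 genes, and without vehicle replicate 1 it called 37 beside 1898. The median stayed between 0.21 and 0.36 when any 1 of the 9 libraries was left out. With all libraries kept, 8 alternatives at the same threshold were run for each of the 9 members. *Ndufb7*, *Ndufb11*, *Atp5e*, *Ndufa11*, and *Atp5j2* passed in all 8. *Ndufs7* and *Ndufv3* passed in 7, *Uqcr10* in 6, and *Uqcrq* in 5. Of the 9 members, 6 are overlapped by a gene on the other strand (*Rbm10* over *Ndufb11*, *Vmac* over *Ndufa11*, *Gamt* over *Ndufs7*, *Gm38099* over *Ndufv3*, *Gdf9* over *Uqcrq*, and *Zmat5* and *Gm74040* over *Uqcr10*), and *Ndufb7*, *Atp5e*, and *Atp5j2* are not. *Ndufb7* lies at chr8:84293300-84298255 on GRCm39, *Atp5e* at chr2:174302861-174305906, and *Atp5j2* at chr5:145120505-145128872, and all 3 are protein-coding genes.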

How the data were processed

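RNA of 9 libraries was sequenced on DNBseq. The deposited count values are whole numbers per gene that the authors made by alignment to mm39 with HISAT2 2.2.1, sorting with Samtools, and counting with HTSeq 0.11.3 (versions from the submitters' processing notes). The annotation release and strand setting of counting are not given in the sources used here. Closing lines that name no gene (17.2% to 21.8% of reads or pairs) were left out. The deposited tables of the authors' own DESeq2 1.32.0 comparisons (fold changes and p-values) were not used.

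Counts were tested with edgeR 4.0.16 in R 4.3.3 (quasi-likelihood fit, robust option on, two-sided, TMM scaling, one model over the 3 groups) on 16618 genes that passed filterByExpr (minimum count 10, minimum total 15), with Benjamini-Hochberg adjustment over all of them and a threshold of 0.05. Errors of log2 fold changes are standard errors derived from the F statistic. Depth was 31469815 to 32943512 counts per library, and the common biological coefficient of variation was 0.170. The p-values measure the spread between pools of mice. Positions, overlaps, and lengths are from GENCODE vM39 on GRCm39, paired for 82 of 85 members by symbol or an older symbol in RefSeq, and not for *Atp5md*, *Atp5mpl*, and *Atp5o*. Promoter windows are from RefSeq on GRCm38.p6. The test code was run on simulated counts. Values of 1 member are not reported here on their own.

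The members, gene lists, and tests were chosen with earlier results of these data known. Members named with values are those past the threshold (up to 10 of smallest p), else the 3 of smallest unadjusted p, the member of highest TPM in each complex, and paralogs and muscle isoforms. In other lists, up to 4 genes are named by smallest p or level. Other members and genes named (*Ndufs1*, *Atp5a1*, *Atp5b*, the complex II and large complex III subunits, *Cyc1*, and *Cycs*) were chosen after their values were seen. Alternatives were DESeq2 1.42.0, limma-voom (limma 3.58.1), edgeR on 2 groups, RLE or library totals, other filters, adjusted p under 0.1, a replicate block, and leaving out each library. Replicate numbers are in the titles, and nothing in the labels says what they share. Over the 500 most variable genes, deviations of same-numbered libraries from their group means correlated at 0.31, 0.17, and 0.43 between vehicle and spironolactone. Between vehicle and prednisolone they correlated at -0.20, -0.19, and -0.12. The former was treated as possible pairing, which these values cannot show. Spironolactone replicate 3 and prednisolone replicate 2, with different numbers, reached 0.27. A block on the vehicle and spironolactone libraries only was therefore added after seeing the data.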

Additional observations from a re-analysis of the deposited data

How the results depend on the processing

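The sign of the members' median log2 fold change was the same under all alternatives in each comparison, but for spironolactone against vehicle without vehicle replicate 1 the median (0.0057) was below that of all genes (0.0093). The count of members called between spironolactone and prednisolone was 9, beside 859 of all genes. It was 18 (beside 1739) with DESeq2, 26 (1598) with edgeR on 2 groups, 5 (917) with library totals in place of TMM, 26 (1940) with no filter beyond 1 count, and 21 (1776) at an adjusted p under 0.1. It ran from 0 to 37 when 1 library was left out, while calls over all genes ran from 232 to 1898, and all member calls were higher with spironolactone. For prednisolone against vehicle (0 members, 293 genes) it was 1 (1019) with no filter and ran from 0 to 21 when 1 library was left out, while calls over all genes ran from 69 to 826. For spironolactone against vehicle (0 members, 3 genes) it was 0 under every alternative, while calls over all genes ran from 0 with limma-voom to 528 with no filter. The replicate block, with no pairing shown between these groups, gave 14 calls between the drugs (1082 genes) and 0 for prednisolone against vehicle, where members with an unadjusted p under 0.05 went from 13 to 15. The block on vehicle and spironolactone libraries only, where pairing is assumed, gave 0 calls beside 46 of all genes and a median of 0.11. It had 14 members at an unadjusted p under 0.05 in place of 6. The block on all 9 libraries gave 0 calls beside 8, and 11 members at an unadjusted p under 0.05. Alternatives were run for 16 single members (21 fold changes), not for all members named. Among these the one sign that turned was that of *Cox7a1* for spironolactone against vehicle, -0.082 without vehicle replicate 1, in a range up to 0.40 when 1 library was left out. The causes were not tested. Depth limits the members near 1 CPM most, *Cox7a1* among them with a lowest count of 13.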
